A study of Mus musculus with 4 samples.

Results

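The GATOR complexes and sestrins are represented by 10 genes, chosen by name from 21631 protein-coding mouse genes: Depdc5, Nprl2 and Nprl3 of GATOR1, Wdr24, Wdr59, Mios, Seh1l and Sec13 of GATOR2, and the sestrin genes Sesn1 and Sesn2. All Deaf1 peaks inside the RefSeq span of each gene, or within 5 kb of it, were taken. Deaf1 was immunoprecipitated with an antibody from enzymatically cut chromatin of C2C12 cells, a single immortalised mouse muscle line, untreated as far as the labels say. The labels call the cells myocytes, and the series text speaks of differentiated myoblasts. There were 2 ChIP replicates, each with its own peak list, and 2 inputs, which were not analysed here. Nothing says whether the replicates came from separate cultures. Peak lists hold no expression values, so the labelled cell type could not be checked against marker genes.

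GATOR1 and GATOR2 carry amino acid supply to mTORC1, the growth-control kinase complex at the lysosome surface. GATOR1 switches off the Rag GTPases that recruit mTORC1, GATOR2 counters GATOR1, and sestrins bind GATOR2 and hold it back until leucine releases them. Seh1l and Sec13 proteins also belong to the nuclear pore, and Sec13 to the COPII vesicle coat. Sestrins are known as stress-induced proteins, Sesn1 as a p53 target. Deaf1 is a transcription factor with a SAND domain, known to bind unmethylated DNA holding TTCG half-sites.

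The RefSeq table of promoters (GRCm38.p6, the assembly behind mm10) held 9 promoters of 8 of these genes, each running from 250 bases before the start to 50 after it. Wdr24 and Seh1l had no entry. The stretches below surround every TTCG of these promoters, read on either strand, 5′ to 3′ on the strand of the gene. Capitals mark the match, which reads CGAA where it lies on the opposite strand.
Depdc5, chr5:32863741-32863770, plus strand: caggtgagcgctcTTCGgtggtgctgtctg
Nprl3, chr11:32267658-32267687, minus strand: ggagcgccgctcggCGAAgtctcgcgagag
Wdr59, chr8:111522207-111522236, minus strand: ctcgtactgatgaCGAAatgaaggggcgtt
Mios, chr6:8209244-8209273, plus strand: cgaggaggtctgcTTCGgaggcggcagggt
Sesn1, first start, chr10:41810560-41810589, plus strand: acagacaaaaaatCGAAtggctggagaacc

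The 250 bases before the start are shown for the promoters on which the contrasts below turn. Depdc5 and the second start of Sesn1 had peaks in both replicates and many CG dinucleotides, Wdr59 had peaks in both and fewer CG, and Nprl2 and Sec13 had none in replicate 2. Capitals mark each CG, of which these runs hold 24 at Depdc5, 24 at Sesn1, 11 at Wdr59, 15 at Nprl2 and 14 at Sec13. The run of Nprl3, not shown, also holds 11, and Nprl3 had peaks in both replicates.
Depdc5, chr5:32863471-32863720, plus strand: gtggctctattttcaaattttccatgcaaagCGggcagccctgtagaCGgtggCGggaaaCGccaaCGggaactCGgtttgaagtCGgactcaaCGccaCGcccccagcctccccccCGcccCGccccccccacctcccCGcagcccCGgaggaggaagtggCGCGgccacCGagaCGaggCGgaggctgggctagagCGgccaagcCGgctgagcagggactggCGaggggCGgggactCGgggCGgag
Sesn1, second start, chr10:41887189-41887438, plus strand: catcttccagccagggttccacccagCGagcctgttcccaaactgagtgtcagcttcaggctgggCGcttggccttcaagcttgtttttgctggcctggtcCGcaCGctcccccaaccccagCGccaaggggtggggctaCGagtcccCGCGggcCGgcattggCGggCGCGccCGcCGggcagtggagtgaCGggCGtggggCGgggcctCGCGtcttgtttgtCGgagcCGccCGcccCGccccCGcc
Wdr59, chr8:111522108-111522357, minus strand: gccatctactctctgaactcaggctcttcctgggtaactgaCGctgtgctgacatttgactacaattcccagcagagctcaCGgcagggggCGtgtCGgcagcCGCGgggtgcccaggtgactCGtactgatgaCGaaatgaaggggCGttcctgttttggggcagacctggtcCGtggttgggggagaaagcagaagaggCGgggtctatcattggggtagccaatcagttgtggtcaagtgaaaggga
Nprl2, chr9:107541959-107542208, plus strand: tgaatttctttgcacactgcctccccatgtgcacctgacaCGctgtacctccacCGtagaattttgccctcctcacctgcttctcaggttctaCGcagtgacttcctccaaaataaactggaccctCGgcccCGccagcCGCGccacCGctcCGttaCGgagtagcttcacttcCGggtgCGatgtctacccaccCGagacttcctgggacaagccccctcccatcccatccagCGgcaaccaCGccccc
Sec13, chr6:113740682-113740931, minus strand: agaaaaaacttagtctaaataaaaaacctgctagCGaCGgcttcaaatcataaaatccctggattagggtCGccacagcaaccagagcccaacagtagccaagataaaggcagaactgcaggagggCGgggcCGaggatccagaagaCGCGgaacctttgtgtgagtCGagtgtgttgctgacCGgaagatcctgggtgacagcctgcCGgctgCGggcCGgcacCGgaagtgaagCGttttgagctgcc

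Of the 10 genes, 8 had a shared peak, meaning peaks of both replicates that overlap by at least 1 bp, inside the span or within 5 kb, against 63.6% of all protein-coding genes. These 8 were 2 of 3 GATOR1 genes, 4 of 5 GATOR2 genes and both sestrin genes. Summits of both replicates lay within 1 kb of the same gene start at 7 of the 10, against 53.8% of all protein-coding genes. For genes without a start in the table, either end of the span was used instead. The 7 were Depdc5, Nprl3, Wdr59, Mios, Seh1l, Sesn1 and Sesn2. The other 3, Nprl2, Wdr24 and Sec13, had a replicate 1 summit there and none in replicate 2, against 9.32% of all protein-coding genes. Wdr24 has no listed start, and its nearest summit lay 296 bp from the higher end, which may not be its start. With 10 genes, counts of 8 and 7 describe these genes and were not tested against the genome.

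**Figure D1:**
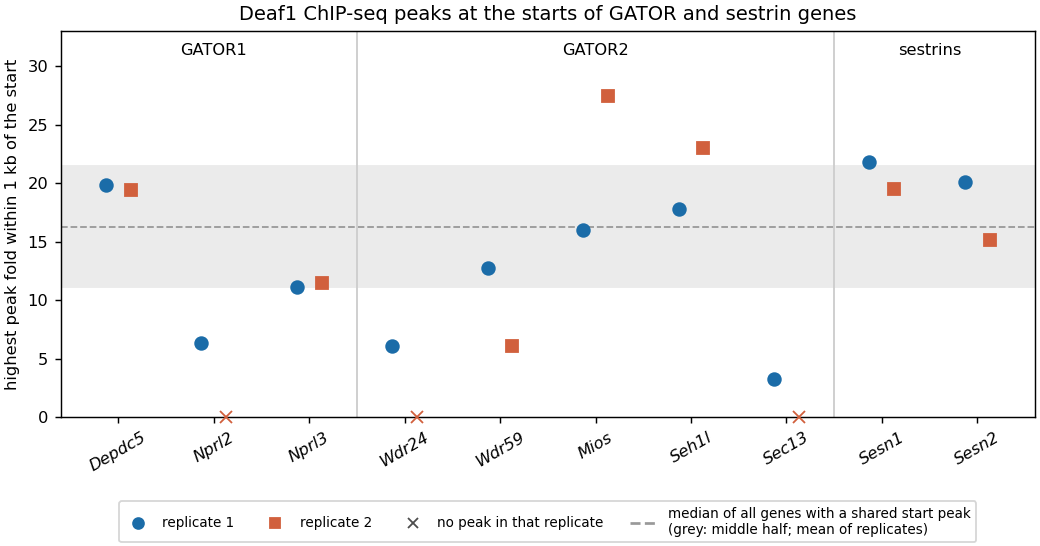
Highest peak fold (y axis, ratio of summit signal to background) with a summit within 1 kb of the start of each gene, in replicate 1 (circles) and replicate 2 (squares), with crosses where a replicate had no peak. The dashed line is the median over 11644 genes with a shared start peak, 16.3, and the grey band runs from 11.2 to 21.5. For Wdr24 and Seh1l the ends of the span stand in for the start.

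In GATOR1, Depdc5 and Nprl3 had shared start peaks and Nprl2 did not. Depdc5, the largest GATOR1 subunit, spans chromosome 5 from 32863646 to 32994233. The fold of its start peak, (fragments at the summit + 1) / (local background + 1), was 19.9 in replicate 1 and 19.4 in replicate 2. The −log10 q was 71.9 and 70.0. The summits lay 63 and 81 bp before the start and 18 bp apart, and no other gene lay within 1 kb. The mean fold was higher than at 66.1% of the 11644 genes with a shared start peak. Deeper inside the gene, replicate 1 alone had peaks with folds of 6.07 and 4.47, the first 81385 bp after the start.

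Nprl3, the partner of Nprl2 in GATOR1, spans chromosome 11 from 32231963 to 32267707, and its introns are known to hold enhancers of the alpha-globin genes. Its start peak had folds of 11.1 in replicate 1 and 11.5 in replicate 2, lower than at most genes with such a peak, since 25.6% of them had a lower mean. The summits lay 19 and 9 bp after the start, 15 and 25 bp from the CGAA shown above. Replicate 1 alone had 3 further peaks with folds of 4.79 to 5.75, of which 1 lay inside the gene, 32926 bp after the start.

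Nprl2, the subunit known to carry the catalytic arginine of GATOR1, on chromosome 9 from 107542177 to 107545706, had 6 peaks in replicate 1 and 0 in replicate 2. The highest, with a fold of 6.39 and a −log10 q of 10.3, lay 13 bp before the start, where the span of Cyb561d2 overlaps that of Nprl2 by 17 bp. The other 5 had folds of 3.83 to 5.43. Of these, only the summit 1564 bp after the start lay inside Nprl2. The rest lay 2004 to 4729 bp outside its span, each within 1 kb of Tmem115, Cyb561d2 or Zmynd10. Replicate 1 had 2435 peaks with a −log10 p within 0.5 of that of the Nprl2 start peak, and 14.2% of them had a partner in replicate 2. The nearest shared peak, with folds of 18.5 and 14.4, lay 5559 bp beyond the higher end of Nprl2, within 1 kb of Rassf1 and Zmynd10.

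**Figure D2:**
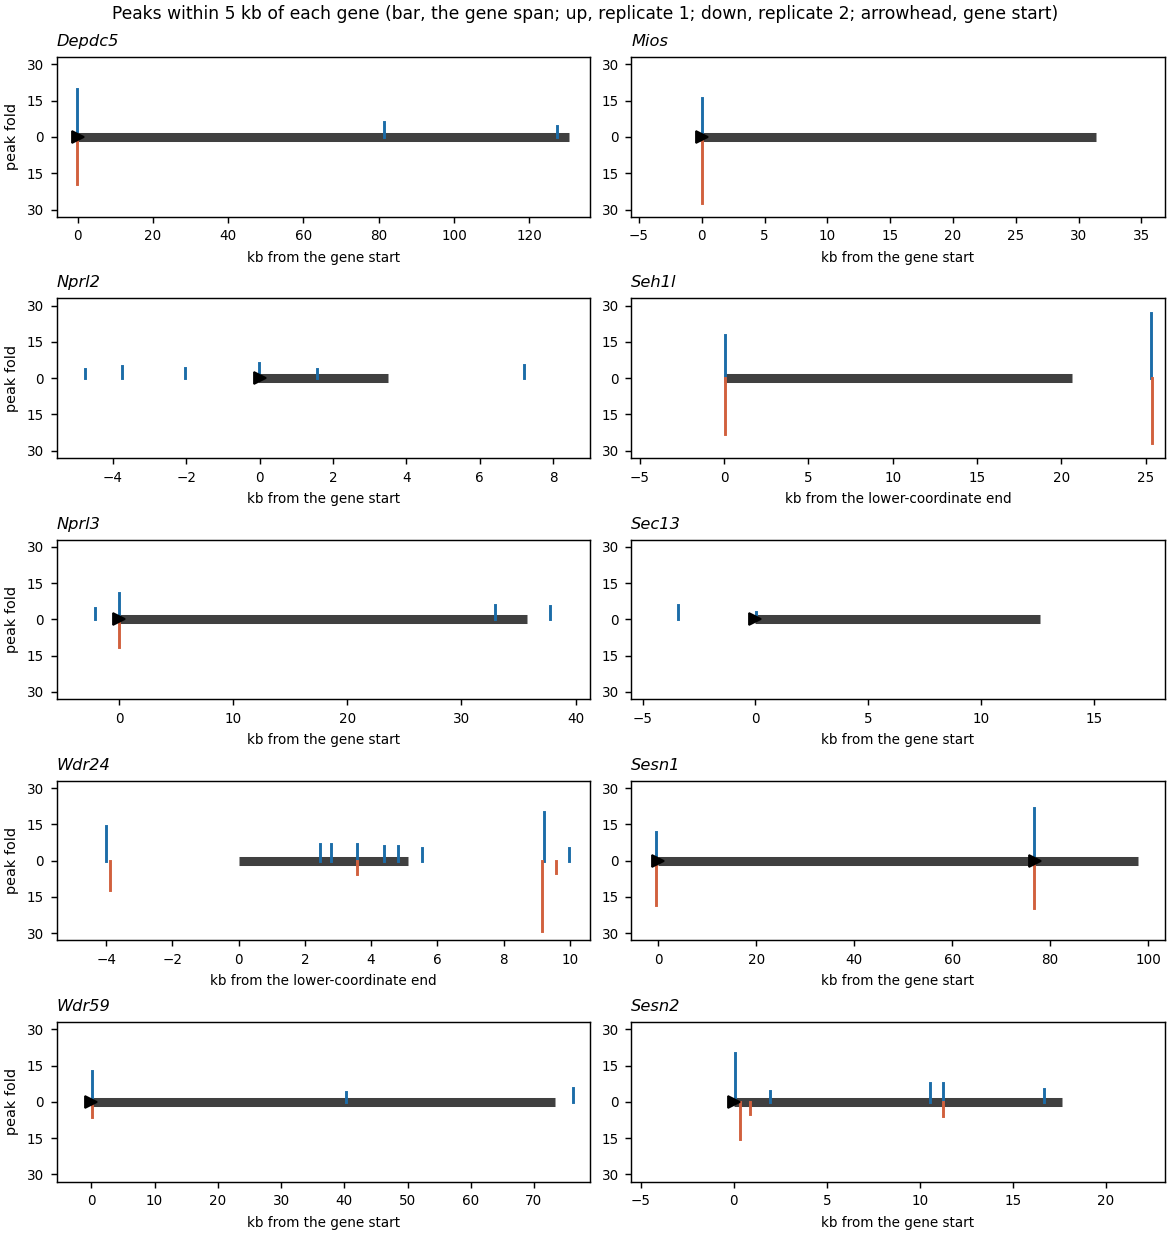
Peak fold (y axis) against distance in kb from the gene start (x axis; from the lower-coordinate end for Wdr24 and Seh1l) for each of the 10 genes, with replicate 1 drawn upwards and replicate 2 downwards. The tallest lines stand at the starts (arrowheads), except at Wdr24, whose tall lines lie outside the span (bar), at Seh1l, where the taller pair lies beyond the higher end, and at Sec13, whose peak before the start has a fold of 5.75 against 3.24 at the start; Nprl2 and Sec13 have lines upwards only.

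In GATOR2, Mios and Seh1l had the highest start peaks, Wdr59 had a lower one, and Wdr24 and Sec13 had no shared start peak. Seh1l has no listed start, and the end of the span used for it may not be its start. Mios, a scaffold subunit, spans chromosome 6 from 8209111 to 8240573 and had 1 peak in each replicate. The fold was 16.0 in replicate 1 and 27.5 in replicate 2, and the summits lay 22 and 36 bp after the start. The TTCG shown above began 8 and 6 bp from these summits. The replicates differed more at Mios than at most genes. The log2 ratio of replicate 2 to replicate 1 was 0.78, higher than at 97.3% of genes with a shared start peak, whose median was -0.09.

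Seh1l, which encodes a propeller protein of GATOR2 and the nuclear pore, spans chromosome 18 from 67774876 to 67795487. At its lower end the folds were 17.8 in replicate 1 and 23.1 in replicate 2, with summits 28 and 34 bp inside the gene. The span of the noncoding gene Gm26910 overlaps this end by 816 bp. A stronger peak, with folds of 27.1 and 26.9, lay 4717 and 4726 bp beyond the higher end. Its summits were 150 and 159 bp inside Cep192, a centrosome gene, so it entered the 5 kb window through a neighbour.

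Wdr59, a propeller subunit of GATOR2, spans chromosome 8 from 111448781 to 111522128. At its start replicate 1 had a fold of 12.8 and replicate 2 of 6.07, with summits 139 and 160 bp after the start. The log2 ratio of replicate 2 to replicate 1 was -1.07, and 4.60% of genes with a shared start peak had a lower one. The summit held 39 fragments in replicate 1 (exact Poisson interval at 95%, 27.7 to 53.3) and 15 in replicate 2 (8.40 to 24.7), over the lowest background of each list. The CGAA of the promoter lay 255 and 276 bp from the summits, outside both peaks.

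Wdr24, a subunit needed for amino acid signalling to mTORC1, spans chromosome 17 from 25823627 to 25828730, between Fbxl16 and Jmjd8. It had 9 peaks in replicate 1 and 4 in replicate 2 within the window, and the strong ones belonged to the surroundings. The strongest pair, with folds of 20.1 and 29.3, lay 4122 and 4067 bp beyond the higher end, 67 and 122 bp after the start of Stub1, a ubiquitin ligase gene. Another pair, with folds of 14.4 and 12.1, lay 4004 and 3897 bp outside the lower end, inside Fbxl16. Inside Wdr24 itself a single shared peak had folds of 6.70 and 5.69, with both summits at 25827210, 1520 bp from the higher end. Among the 22891 shared regions of the genome, 10.3% had a lower fold in replicate 1 and 21.2% in replicate 2. Replicate 1 alone had 4 more peaks inside the gene, with folds of 6.07 to 7.02, the nearest 296 bp from the higher end. That summit also lay within 1 kb of Jmjd8, whose span is 312 bp from that of Wdr24.

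Sec13 spans chromosome 6 from 113728052 to 113740681 and had 2 peaks in replicate 1 and 0 in replicate 2. The peak at its start, 14 bp after it, had a fold of 3.24 and a −log10 q of 5.47, and 1.24% of the replicate 1 peaks had a lower fold. The summit held 26 fragments, more than the 19 at the start of Nprl2, over a local background of 7.35 fragments against 2.13 at Nprl2. This background was higher than at 99.6% of the replicate 1 peaks. Replicate 1 had 5061 peaks with a −log10 p within 0.5 of that of the Sec13 start peak, and 3.93% of them had a partner in replicate 2. The other peak, with a fold of 5.75, lay 3422 bp before the start, within 1 kb of Atp2b2, and the nearest shared peak was 14407 bp away.

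Both sestrin genes had shared start peaks, and Sesn1 had them at each of its 2 annotated starts. Sesn1 spans chromosome 10 from 41810574 to 41908436, with starts at 41810574 and 41887439. The peak at the second start, inside the gene, had folds of 21.8 in replicate 1 and 19.5 in replicate 2, with summits 66 and 61 bp before that start and 5 bp apart. No other gene lay within 1 kb of it, and its mean fold was higher than at 70.9% of genes with a shared start peak. At the first start the folds were 11.8 and 18.3, and the summits lay 435 and 474 bp before the start. Cep57l1 runs the other way from a point 705 bp off, and these summits were 271 and 232 bp before the Cep57l1 start, nearer to it than to Sesn1. The first peak held 66 and 57 fragments over backgrounds of 4.67 and 2.17.

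Sesn2, whose protein binds leucine, spans chromosome 4 from 132492804 to 132510456. Its start peak had folds of 20.1 in replicate 1 and 15.2 in replicate 2. The replicate 1 peak was 1090 bp wide with its summit 90 bp after the start. Replicate 2 had 2 peaks in the same stretch, with the higher summit 352 bp after the start and a lower one, with a fold of 4.93, 884 bp after it. The highest summits were thus 262 bp apart, the widest gap at any shared peak of these genes. A second shared peak inside Sesn2 had folds of 7.66 and 5.69, 11219 and 11245 bp after the start. Replicate 1 alone had 3 more peaks inside the gene with folds of 4.47 to 7.66.

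**Figure D3:**
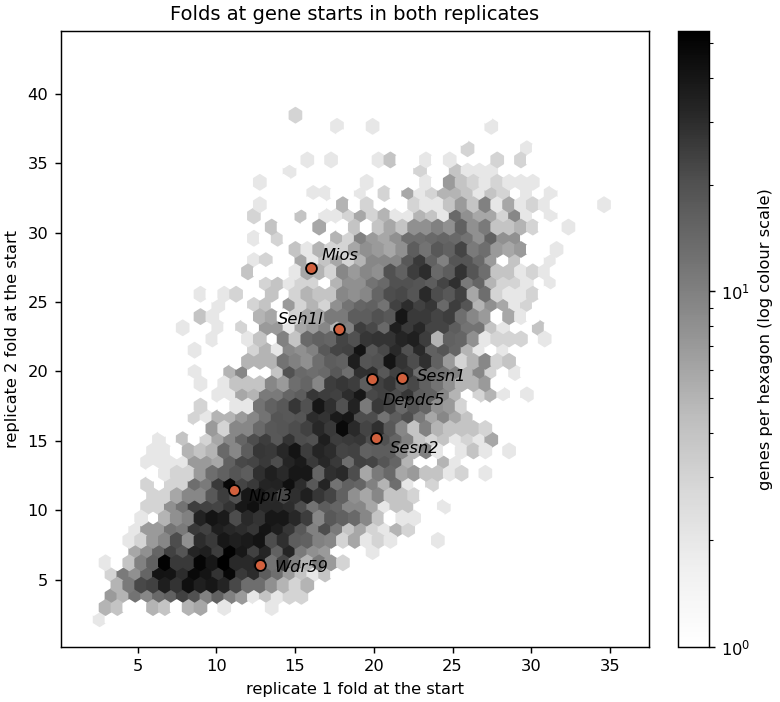
Fold at the gene start in replicate 1 (x axis) and replicate 2 (y axis) for 11644 protein-coding genes with a shared start peak (grey hexagons, number of genes on a log colour scale) and the 7 GATOR and sestrin genes among them (orange). Mios lies towards the upper edge of the cloud with 16.0 and 27.5, and Wdr59 towards the lower edge with 12.8 and 6.07.

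Across the 10 genes the windows held 37 peaks in replicate 1 and 15 in replicate 2, of 65606 and 26503 in the whole lists. All 15 in replicate 2 had a partner in replicate 1, against 93.9% of the whole replicate 2 list. Of the 37 replicate 1 peaks, 13 had a partner (35.1%, against 35.0% of the whole list). The 24 without one had folds of 3.24 to 7.66 with a median of 5.43, while the 13 with one had folds of 6.70 to 27.1 with a median of 16.0. The lone replicate 1 peaks were thus weak, with 11 to 26 fragments at the summit, and 22 of the 24 stood over the lowest background of the list.

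Read depth is not given in the files, so the fragments at each summit set the precision. At the start peaks of Depdc5, Nprl3, Seh1l and the second start of Sesn1, the counts of the replicates were 72 and 71, 62 and 54, 75 and 72, and 79 and 82, with overlapping intervals. Sesn2 had 62 fragments in replicate 1 (interval 47.5 to 79.5) and 39 in replicate 2 (27.7 to 53.3). Wdr59 was the only one of the 7 in which the intervals of these unscaled counts did not overlap. These intervals cover counting error only. The counts were not scaled between the replicates, whose lowest backgrounds were 2.13 and 1.64 fragments, so whether scaled intervals would overlap was not tested. The local background stood above the lowest level of both lists at 5 of the 7 genes, and at that level in both at Wdr59 and Sesn2. Mios had 4.01 fragments of background in replicate 1 and 2.17 in replicate 2, and 79 (62.5 to 98.5) and 86 (68.8 to 106) fragments at the summit, so its folds differed more than its summit counts.

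**Figure D4:**
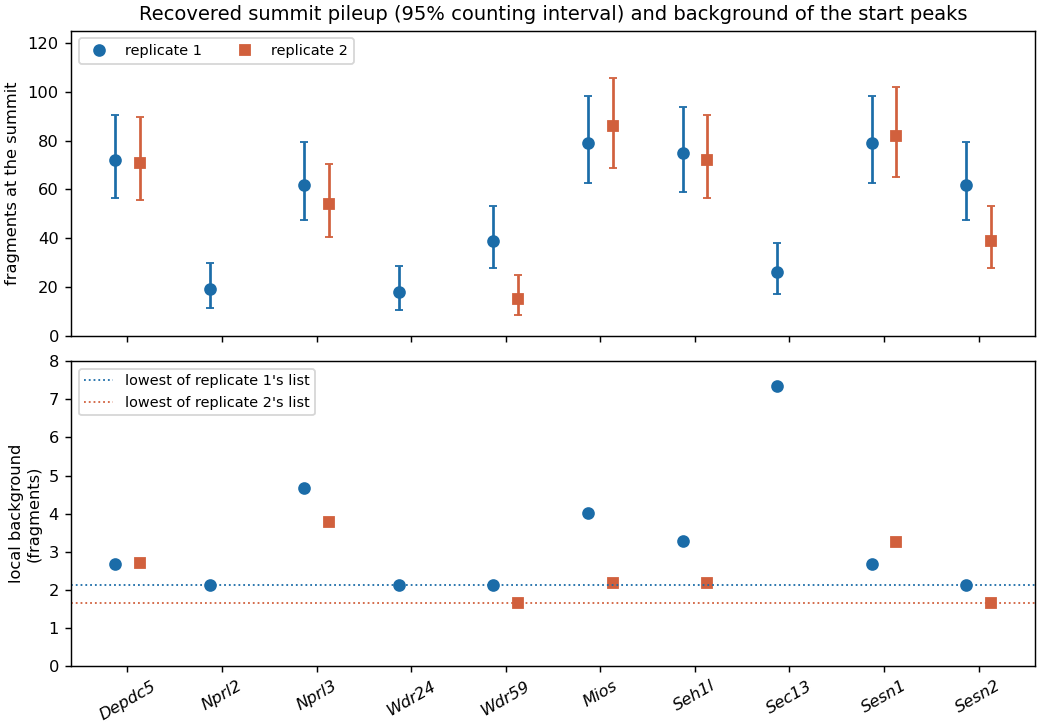
Upper panel, fragments at the summit of the start peak, with exact Poisson intervals at 95%; lower panel, local background in fragments, for each gene (x axis) in replicate 1 (circles) and replicate 2 (squares), with Sesn1 at its second start. Dotted lines mark the lowest background of each list, 2.13 and 1.64 fragments; Sec13 stands far above them with 7.35, and Wdr59 shows 39 against 15 fragments.

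The promoters of these genes other than Wdr59 were rich in CG dinucleotides. These 8 promoters held 20 to 31, against a median of 13 over 21045 promoters of protein-coding genes. Wdr59 held 13, equal to that median. The median was 23 in promoters with summits of both replicates within 1 kb of the start and 4 in the others. A shared start peak stood at 96.5% of promoters with 30 or more CG, 89.1% of those with 20 to 29, 68.5% of those with 10 to 19 and 9.83% of those with 0 to 9. Nprl2 and Sec13, each with 21, were thus among the minority of CG-rich promoters without a shared peak, while Wdr59 had one with 13. Depdc5 had 30, Mios 27, Sesn2 23 and Nprl3 20, and the starts of Sesn1 had 24 and 31.

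**Figure D5:**
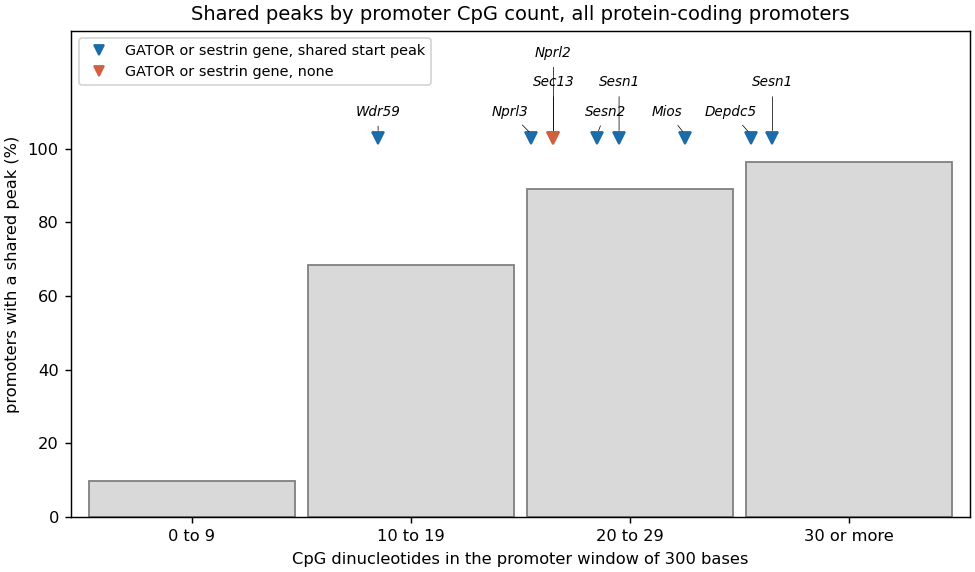
Share of all protein-coding promoters with a shared start peak (y axis, percent) by the number of CpG dinucleotides in 300 bases (x axis); triangles place the 9 promoters of these genes, blue with a shared start peak and orange without. Nprl2 and Sec13 coincide at 21, in a class where 89.1% of promoters have a shared peak.

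TTCG, counted on both strands, occurred in 5 of the 9 promoters, against 49.4% of the 21045. TTCGG, of which the same TTCG is part, occurred in 2, those of Depdc5 and Mios, against 22.2% of the 21045. No promoter of the 9 held 2 TTCG matches starting within 11 bases of each other, against 3.96%. Of all promoters with TTCG, 64.8% had a shared start peak, against 39.6% of those without. TTCG contains a CG, so both counts share letters. The Sesn2 promoter and the second Sesn1 promoter had shared peaks and no TTCG, and the match of Depdc5 lay 96 and 114 bp from its summits. The match at the first Sesn1 start was the farthest of the 5 from its summits, at 434 and 473 bp. Sequence further than 50 bases past a start was not searched.

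Other genes of amino acid sensing, upstream of mTORC1 or encoding its subunits, were counted from a list of 22. Of these, 21 matched the gene table and Kics2 did not. Shared peaks lay within 5 kb of 20 of the 21, against 63.6% of all protein-coding genes, and shared start peaks at 17, against 53.8%. These counts, too, were not tested against the genome. Of the Rag GTPases and the Ragulator complex that anchors them, 8 of 9 genes had a shared start peak, as had all 3 mTORC1 subunits listed and 2 of 3 matched genes of KICSTOR, the complex that holds GATOR1 at the lysosome. Sesn3, the sestrin gene outside the 10, had folds of 25.2 in replicate 1 and 26.5 in replicate 2. Its mean fold was above that of both start peaks of Sesn1 and that of Sesn2, and higher than at 92.3% of genes with a shared start peak. The next were Lamtor2, a Ragulator subunit, with 20.1 and 28.1, and Rptor, the subunit that presents substrates to mTOR, with 20.1 and 23.5. Itfg2 of KICSTOR was the only gene of the 21 with no shared peak within 5 kb, and its start had a replicate 1 peak with a fold of 10.6. Klhl22, Slc38a9 and Lamtor4, named after their values were seen, had shared peaks within 5 kb but not at the start.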

How the data were processed

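Deaf1 ChIP-seq was recorded in 2 replicates of C2C12 myocytes, with 2 inputs not analysed here. Reads were aligned to mm10 and peaks called by tools named as BWA and MACS2, per the submitters' processing notes. No source used here states versions, settings or which control the caller had. Peaks came separately for each ChIP replicate: the authors deposited 1 list each, with fold enrichment (a ratio), −log10 p, −log10 q, a score and positions, which were made 1-based. Folds are the authors' own values per peak. Those of both lists were set side by side, averaged and divided without rescaling, as a description, since read depth is not known. The score column that the authors deposited is 10 × −log10 p without decimals and was used no further.

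Summit fragments n and background were solved from the deposited fold, (n + 1) / (background + 1), and the Poisson p; the largest misfit in −log10 p was 4.07e-05. The recovery was tested on simulated data. Gene spans came from RefSeq GRCm38.p6, and 17274 of 21631 protein-coding genes had a start in its promoter table. For the other 4357, either end was used. Strand was not known for those, nor exons for any gene. Python 3.11.15, pandas 2.3.3 and scipy 1.17.1 were used. The named genes are all 10 members, genes lying within 1 kb of a peak summit of a member as neighbours, and, of the pathway list, Sesn3, the 3 of highest mean start fold and any without a shared peak. Members and lists were chosen with earlier results of these data known. Alternatives changed the window, peak threshold, overlap rule, list length and replicate.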

Additional observations from a re-analysis of the deposited data

How the results depend on the processing

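No paired analysis was possible because only the ChIP samples have peak lists, so no input could be set against the ChIP sample of the same number. The 8 genes with a shared peak were the same 8 with windows of 0, 1 and 2 kb, a minimum of 5 for fold or for −log10 q, equal list lengths, a stricter overlap rule and summits within 100 bp. Under the last rule Sesn2 stayed only through its weaker inner peak, with folds of 7.66 and 5.69, since its start summits were 262 bp apart. With 10 kb Nprl2 joined them through the peak at Rassf1, giving 9. Taken singly, a replicate has no shared peaks. Genes with any peak of a given replicate within 5 kb then numbered 8 to 10. Those with a summit of it within 1 kb of the start numbered 7 to 10. Both counts were higher with replicate 1, which has the longer list. The share of all protein-coding genes was not computed for any alternative gene count in this section. These counts can therefore not be set against the genome. Start peaks numbered 6 with a 300 bp window, which lost Sesn2, and 8 with 2 kb. The larger window added Wdr24 by a peak 1520 bp from its higher end, which may not be its start. The median over the 8 genes of the mean fold at the strongest shared peak was 20.2. It was 18.6 with windows of 1 kb or 0 kb and at the peak nearest to the start, since these leave out the Stub1 and Cep192 peaks, and 19.5 to 19.97 over the single replicates. At Wdr24 that fold was 24.7 with 5 kb and 6.20 with 1 kb, and at Seh1l 27.0 and 20.4. TTCG occurred in 1 of 9 promoters, that of Wdr59, when only the 250 bases before the start were searched, against 43.0% of all promoters in that window, since the other matches begin at or after the start or run across it. The pathway count of 17, whose alternatives were chosen after seeing the data, was 15 to 17 under the thresholds and equal list lengths. Pathway genes with a start summit of a given single replicate numbered 17 to 20. Without read depth, a peak missing from replicate 2 cannot be told apart from one below its detection limit.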

Other observations

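The letters CCGGAAG, searched on both strands after the sequences had been seen, occurred in the promoters of Nprl2 and Sec13 and in none of the other 7 promoters of these genes. Over all 21045 promoters 11.7% held it. Of those that did, 75.7% had a shared start peak, against 49.0% of those that did not. Across the genome the match thus went with more shared start peaks, while the 2 genes here had start peaks in replicate 1 only. CCGGAAG contains a CG, and shared start peaks were more frequent at promoters with more CG. Whether the match goes with shared peaks at like CG counts was not tested.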
